A study of Mus musculus with 8 samples.

Results

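H3K27ac, an acetyl mark on histone H3 that accompanies active promoters and enhancers, was described here at 10 integrin genes of mouse muscle satellite cells, the stem cells of skeletal muscle. The members were a named list (Itga7, Itga6, Itga3, Itgb1, Itga5, Itgav, Itgb5, Itgb6, Itga4 and Itga9), 10 of the 21887 protein-coding genes measured. The data were peak lists from ChIPmentation, a chromatin immunoprecipitation in which the antibody-bound DNA is tagmented into a library. Muscle stem cells of C57BL/6 mice formed 2 groups with 2 H3K27ac libraries each. In FISC, the freshly isolated satellite cells, the muscle had no treatment, and in ASC, the activated satellite cells, it had been injured with BaCl2 2.5 days earlier. The age and number of the mice, any pooling and the way the cells were sorted were not given in the sources used here, and 4 input libraries were not used here. Nothing states that the libraries of a group came from separate mice, so the p-values measure the spread between these libraries, which may be technical.

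Integrins are membrane receptors made of an alpha and a beta subunit that bind extracellular matrix outside the cell and talin, kindlin and focal adhesion proteins inside it. The beta 1 subunit pairs with many alpha chains, of which alpha 7, alpha 6 and alpha 3 give laminin receptors and alpha 5 the classical fibronectin receptor, while alpha v pairs with beta 1, beta 3, beta 5, beta 6 or beta 8. Satellite cells lie between the muscle fibre and its laminin-rich basal lamina, and alpha 7 beta 1 is a laminin receptor on their surface that is often used to sort them.

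Each gene was described by the length of DNA under peaks, in kb, in 3 places. Gene-end breadth counted the 8 kb within 2 kb of either end of the gene, gene-body breadth the rest of the gene, and flank breadth the 96 kb that reached from 2 to 50 kb outside it on both sides, other genes included. ASC was compared with FISC for every gene covered in at least 2 libraries with limma, and a gene was called where the Benjamini-Hochberg adjusted p over all genes tested was under 0.05. Peak lists carry no read depth, so the depth is unknown, and a peak wider because more cells carry the mark cannot be told apart from one wider because each cell carries more of it. The ASC lists held 50154 and 54700 peaks over 49.2 and 57.7 Mb, and the FISC lists 45014 and 43092 peaks over 34.4 and 33.7 Mb. ASC thus covered 19.4 Mb more (exact two-sided permutation p = 0.333, the smallest that 2 against 2 libraries allow), and each difference below stands beside this one.

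The label of the cells was checked on marker genes. All 10 satellite cell markers, Pax7, Myf5 and Myod1 among them, were covered at their ends in at least 2 libraries, with sums of 30.02 and 32.3 kb in ASC and 33.4 and 35.2 kb in FISC. However, 1 of the 10 had no end peak in either ASC library. At the ends 2 of the 10 were called higher in ASC and 2 lower, against 26.5% and 3.61% of all genes. Of 10 myeloid markers 6 were uncovered in all libraries (Ptprc, Adgre1, Lyz2, Fcgr1, Cx3cr1 and Itgam), and the sum over the list was 5.08 and 6.88 kb in ASC against 3.19 and 3.06 kb in FISC. The others, Csf1r, Cd68, Spi1 and Cd14, had end peaks in some or all libraries. In the flanks, other genes included, 5 of 6 tested myeloid markers were called higher and 0 lower. Of 9 satellite cell markers 2 were higher and 1 lower there, against 46.0% and 5.71% of all genes. The myeloid flank sums were 63.9 and 75.1 kb in ASC and 44.8 and 43.1 kb in FISC. Of 8 endothelial markers 5 were uncovered (Pecam1 and Cdh5 among them), and the sum was 0.61 and 0.97 kb in ASC and 1.59 and 1.64 kb in FISC, mostly at Tek. Of 8 fibroblast markers 4 were uncovered (Pdgfra, Dcn, Col1a1 and Lum), while Col3a1, Dpt and Cd34 were covered in all libraries and Ly6a in ASC only, with sums of 6.28 and 7.54 kb in ASC and 6.25 and 6.26 kb in FISC. Of 7 smooth muscle and pericyte markers 2 were uncovered (Rgs5 and Kcnj8), while Acta2 and Notch3 were covered in all libraries, with sums of 6.79 and 8.03 kb against 7.39 and 6.999 kb. Of 6 lymphoid markers 3 were uncovered, with sums of 1.35 and 1.53 kb against 1.98 and 1.71 kb. The part of other cells in the results below was not tested.

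The start sites of the members show which of them carried a peak. RefSeq (GRCm38.p6) gave 10 start sites for 8 members, and none for Itga7 and Itga6. In the 250 bases before the start, 6 of these sites, each of another gene, lay wholly or partly under a peak in all 4 libraries, and 4 had no base under a peak in any library. The 6 covered sites held 11 to 22 CpG dinucleotides and the 4 uncovered sites 3 to 10, against a median of 6 over 32851 promoters of the same length. The uncovered sites of Itgb6, Itga3 and Itga9 lay wholly inside the gene span, as did the covered site of Itgav. Both starts of Itgb6 and of Itga3 are shown first, since 1 of each pair was covered and the other was not, followed by the covered starts of Itgb1 and Itga5 and the uncovered start of Itga4. Each runs 5′ to 3′ toward the start, and capitals mark matches to the motifs named next, on either strand.
Itgb6, outer start, covered, minus strand, chr2:60722604-60722853: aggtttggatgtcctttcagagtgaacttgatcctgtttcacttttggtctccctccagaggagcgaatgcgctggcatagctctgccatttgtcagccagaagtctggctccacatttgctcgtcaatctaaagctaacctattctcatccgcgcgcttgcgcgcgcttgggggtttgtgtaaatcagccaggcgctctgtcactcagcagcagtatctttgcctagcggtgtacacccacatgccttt
Itgb6, inner start, uncovered, minus strand, chr2:60673694-60673943: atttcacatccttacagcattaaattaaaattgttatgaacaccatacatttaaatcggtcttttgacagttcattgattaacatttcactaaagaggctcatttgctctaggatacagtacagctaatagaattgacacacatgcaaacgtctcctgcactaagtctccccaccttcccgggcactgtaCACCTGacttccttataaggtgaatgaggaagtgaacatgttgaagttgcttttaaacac
Itga3, outer start, covered, minus strand, chr11:95076715-95076964: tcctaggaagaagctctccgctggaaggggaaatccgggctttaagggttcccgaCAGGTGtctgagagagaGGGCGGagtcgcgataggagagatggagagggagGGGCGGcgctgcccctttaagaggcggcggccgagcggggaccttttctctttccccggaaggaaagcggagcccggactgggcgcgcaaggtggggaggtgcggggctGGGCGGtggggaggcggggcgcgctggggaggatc
Itga3, inner start, uncovered, minus strand, chr11:95069199-95069448: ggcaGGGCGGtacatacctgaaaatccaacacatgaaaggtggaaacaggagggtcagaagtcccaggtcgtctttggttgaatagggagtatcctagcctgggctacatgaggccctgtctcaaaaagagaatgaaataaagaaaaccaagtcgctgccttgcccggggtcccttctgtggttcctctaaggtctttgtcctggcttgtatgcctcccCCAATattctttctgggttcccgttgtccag
Itgb1, covered, plus strand, chr8:128685404-128685653: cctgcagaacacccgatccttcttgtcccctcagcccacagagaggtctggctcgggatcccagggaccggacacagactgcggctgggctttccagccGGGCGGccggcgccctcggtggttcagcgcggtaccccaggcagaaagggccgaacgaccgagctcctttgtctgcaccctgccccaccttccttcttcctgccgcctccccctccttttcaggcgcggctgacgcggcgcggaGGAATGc
Itga5, covered, minus strand, chr15:103366792-103367041: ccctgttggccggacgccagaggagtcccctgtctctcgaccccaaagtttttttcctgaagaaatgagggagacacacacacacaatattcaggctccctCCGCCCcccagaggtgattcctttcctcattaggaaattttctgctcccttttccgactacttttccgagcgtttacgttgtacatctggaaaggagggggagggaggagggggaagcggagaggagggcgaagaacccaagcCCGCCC
Itga4, uncovered, plus strand, chr2:79255176-79255425: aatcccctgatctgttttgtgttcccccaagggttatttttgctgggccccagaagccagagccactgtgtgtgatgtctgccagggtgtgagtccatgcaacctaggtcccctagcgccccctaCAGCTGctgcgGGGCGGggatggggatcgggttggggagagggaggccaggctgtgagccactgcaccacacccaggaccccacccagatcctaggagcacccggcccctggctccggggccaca

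The motifs were searched on both strands. The GC box GGGCGG was found in 6 of the 10 member sites and 32.7% of all promoters. The E-box CAGCTG was in 3 sites and 13.0% of promoters, and the E-box CAGGTG in 4 sites and 17.2%. GGAATG was in 1 site and 12.6% of promoters, and CCAAT in 1 site and 33.8%. TGACTCA, whose reverse complement is TGAGTCA, was in 0 of the 10 sites and in 4.46% of promoters, and TATAAA in 0 sites and 12.4%. The matches shown do not overlap each other. The covered outer start of Itgb6 held none of these letters, whereas the uncovered start of Itga4 held a GC box and an E-box. A match is only a match of letters, and a missing one says nothing of a factor.

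At the gene ends 5 of the 8 integrin genes that could be tested were broader in ASC: Itga7, Itgb6, Itga5, Itga6 and Itga3. None was called narrower, and Itgb1, Itgav and Itgb5 were not called. Over all 12924 genes tested 26.5% were called higher and 3.61% lower in ASC. The median difference was 0.68 kb over the 8 members and 0.30 kb over all genes. Itga4 and Itga9 had no base under a peak at their ends in any library.

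In the gene bodies 4 of 7 tested members were broader in ASC (Itgb6, Itgav, Itgb1 and Itga5), 0 were called narrower and 3 were not called, against 42.8% of 6528 genes called higher and 9.73% called lower. The median difference was 1.56 kb over these 7 and 0.53 kb over all genes. Body values were not divided by the length of the body, which ran from 18.5 to 290 kb over these 7. Itga6, Itga3 and Itga4 had no peak in the body.

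In the flanks 6 of 9 tested members were called higher (Itga7, Itgav, Itgb6, Itga5, Itgb5 and Itgb1) and Itga9 was called lower, against 46.0% and 5.71% of 15985 genes. The medians were 1.90 kb over the 9 and 0.96 kb over all genes. Without FISC replicate 1 or without FISC replicate 2, 0 genes were called at ends or in bodies by limma. At an unadjusted p under 0.05, 3348 and 3121 genes were then higher at the ends, 6 and 5 of them members, and 2014 and 1933 in the bodies, 2 and 2 of them members. The members called at the ends had adjusted p-values from 0.0924 to 0.167 in these fits, and those called in the bodies from 0.0766 to 0.181, with differences of the same sign.

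**Figure D1:**
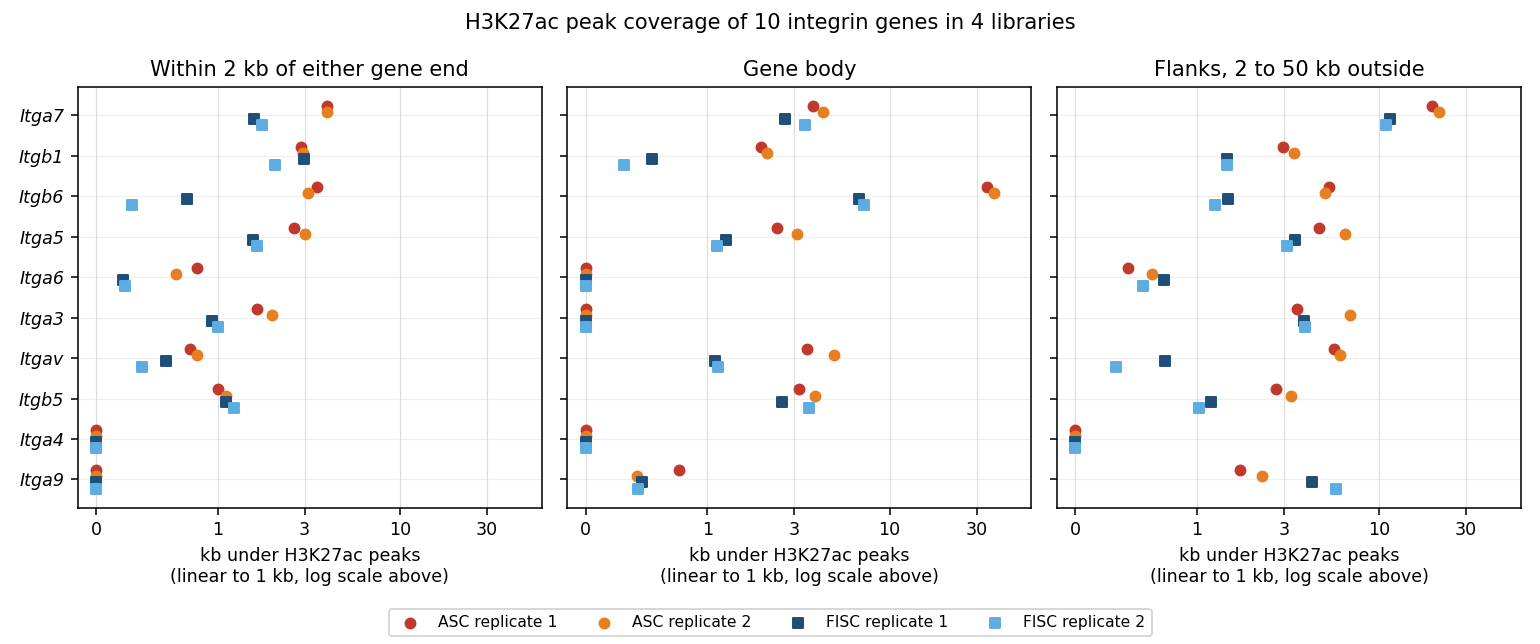
Kb under H3K27ac peaks at 10 integrin genes, in 3 panels for the gene ends, the gene body and the flanks; circles are the 2 ASC libraries and squares the 2 FISC libraries, and the axis is linear to 1 kb and logarithmic above. The body of Itgb6 stands at 34.1 and 37.2 kb in ASC against 6.80 and 7.26 kb in FISC, the flank of Itga9 is lower in both ASC libraries than in both FISC libraries, and Itga4 lies at 0 in all panels.

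The laminin-binding alpha chains differed in how much of the locus took part. Itga7 (chr10:128933421-128958286) encodes alpha 7, the partner of beta 1 in the main laminin receptor of muscle. Its gene-end breadth was 4.0 and 4.0 kb in the ASC libraries and 1.59 and 1.75 kb in the FISC libraries, so that the groups did not overlap. The difference was 2.33 kb (SE 0.15, adjusted p = 0.00227), which ranked 193 among the gains of 12924 genes. The 4 kb around the lower end were full in both ASC libraries, so a wider domain there would have given the same value. The window thus set the spread between the ASC libraries to 0, and the difference, SE, p and rank carry this limit. With ends of 5 kb the difference was 5.72 kb (SE 0.46, adjusted p = 0.00161). In ASC replicate 1 a single peak of 9.78 kb ran from 6.11 kb outside that end to 3.67 kb inside, and in ASC replicate 2 a peak of 12.6 kb ran from 6.55 kb outside to 6.07 kb inside. Both stood at a width percentile of 99.97 among the peaks of their own lists. In FISC the first peaks began 0.21 and 0.25 kb inside the gene and were 1.21 and 2.37 kb wide.

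The body of Itga7 had 3.80 and 4.33 kb under peaks in ASC and 2.68 and 3.42 kb in FISC, a difference of 1.01 kb (SE 0.42, adjusted p = 0.119). It was not called, although the groups did not overlap, and it passed where peaks under a deposited fold enrichment of 5 were left out (1.51 kb, adjusted p = 0.026). The flanks had 19.5 and 21.3 kb in ASC against 11.5 and 10.9 kb in FISC (difference 9.20 kb, SE 1.501, adjusted p = 0.0039). These flanks are crowded, with Gdf11, Cd63, Rdh5, Bloc1s1, Mettl7b and Olfr9 within 50 kb. The ends of Cd63, a tetraspanin gene, had 3.06 and 3.54 kb in ASC against 1.38 and 1.55 kb in FISC. Outside other genes and their ends, 5.38 and 5.78 kb of the flank were covered in ASC and 0.84 and 0.58 kb in FISC (adjusted p = 0.00352). Most of this ASC length was the outer part of the gene-end peak, which ran past 2 kb to 6.11 and 6.55 kb outside the gene. It is thus largely the same peak as in the gene-end difference. A region at chr10:128999655-129000095, 41.6 kb above the gene, had a peak in both ASC libraries and in neither FISC library. The flank call was lost without FISC replicate 1 (9.52 kb, adjusted p = 0.096) and without FISC replicate 2 (8.87 kb, adjusted p = 0.121).

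Itga6 (chr2:71786886-71858427) encodes alpha 6, a laminin receptor chain of epithelia and many stem cells. Its end carried 1 small peak per library, of 0.83 and 0.65 kb in ASC and 0.22 and 0.24 kb in FISC. The difference was 0.51 kb (SE 0.10, adjusted p = 0.0226), small beside that of Itga7. The deposited fold enrichment of a peak over background is the authors' value and was used to rank peaks within 1 list. By it, the peak of Itga6 stood at percentiles 66.9 and 77.6 of the ASC lists and 45.6 and 18.9 of the FISC lists. The flank held 1 region, at the end of the kinase gene Pdk1, with 0.43 and 0.63 kb in ASC and 0.73 and 0.56 kb in FISC (adjusted p = 0.536). With flanks to 100 kb the difference turned to 0.53 kb higher in ASC (adjusted p = 0.0266).

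Itga3 (chr11:95044475-95076844) encodes alpha 3, which binds laminins of epithelial basement membranes. The peaks at its outer start summed to 1.65 and 2.00 kb in ASC and 0.96 and 1.01 kb in FISC (difference 0.84 kb, SE 0.16, adjusted p = 0.0206). With the lists at equal covered length the ASC replicate 1 value became 0 and the difference 0.02 kb (adjusted p = 0.988), and the call was lost without ASC replicate 1 (1.02 kb, adjusted p = 0.0556) and without ASC replicate 2 (0.67 kb, adjusted p = 0.0952). It was also lost with ends of 1 kb (0.41 kb, adjusted p = 0.129) and of 5 kb (0.42 kb, adjusted p = 0.24), and in 12 of 16 alternatives in all. Its flanks had 3.54 and 6.93 kb in ASC and 3.86 and 3.93 kb in FISC, overlapping ranges (adjusted p = 0.324). Without ASC replicate 1 the flank difference was 3.03 kb (adjusted p = 0.0207), and without ASC replicate 2 it was -0.36 kb (adjusted p = 0.303). Regions 9.05 and 28.9 kb above the gene (chr11:95085342-95086445 and chr11:95105321-95106159) had peaks in both ASC libraries only. Small regions near Ppp1r9b and Pdk2 (chr11:95004646-95004951 and chr11:95041749-95042044) had peaks in both FISC libraries only.

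**Figure D2:**
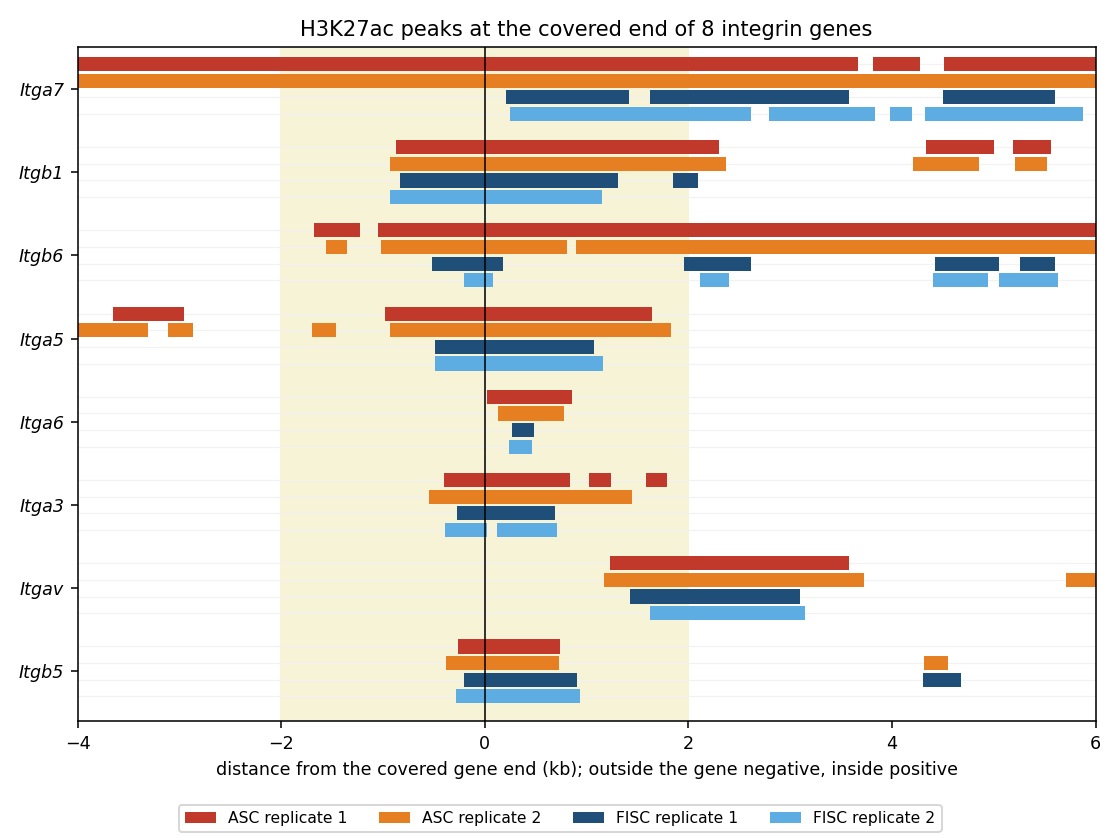
Peaks of the 4 libraries around the covered end of 8 integrin genes, plotted by distance from that end in kb, negative outside the gene and positive inside; the shaded band is the window of 2 kb on each side. The ASC peaks of Itga7 run through and past the window and those of Itgb6 run past its inner side, whereas the end peaks of Itgb5 have nearly the same span, 1.01 to 1.23 kb, in all 4 libraries.

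Itgb1 (chr8:128685654-128733579) encodes beta 1, the common partner of the laminin and fibronectin receptors above. Its ends had 2.88 and 2.93 kb in ASC and 2.996 and 2.08 kb in FISC, and the groups overlapped (difference 0.37 kb, SE 0.32, adjusted p = 0.412). The high FISC value came with 3 small peaks of 0.20 to 0.40 kb at the far end of the gene in FISC replicate 1, and without FISC replicate 2 the difference was -0.09 kb (adjusted p = 0.699). At the annotated start alone the difference was 0.72 kb (adjusted p = 0.0209), and where peaks under a fold enrichment of 5 were left out it was 0.679 kb (adjusted p = 0.0423). The start peak, whose upstream sequence is printed above, reached 2.30 and 2.37 kb into the gene in ASC and 1.31 and 1.15 kb in FISC. Its fold enrichment stood at percentiles 99.4 and 99.0 of the ASC lists and 99.7 and 99.1 of the FISC lists, so that it was among the strongest peaks in each list.

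In the body of Itgb1 ASC had 1.98 and 2.11 kb under peaks and FISC 0.54 and 0.31 kb (difference 1.62 kb, SE 0.18, adjusted p = 0.00695). The flanks had 2.98 and 3.39 kb against 1.46 and 1.45 kb (difference 1.73 kb, SE 0.28, adjusted p = 0.00392), and no other protein-coding gene lies within 50 kb. Of the regions around Itgb1, 6 had a peak in both ASC libraries and in neither FISC library, the widest at chr8:128666209-128667039 and chr8:128667140-128667777 upstream and chr8:128689857-128690653 in the body. A region at chr8:128727733-128728070 in the body had peaks in both FISC libraries only. The peaks of the 6 regions had fold enrichments of 3.61 to 7.51. With the lists at equal covered length the body difference was -0.09 kb (adjusted p = 0.507) and the flank difference -0.63 kb (adjusted p = 0.415), and the body call was also lost without ASC replicate 2 (1.55 kb, adjusted p = 0.0547). The flank call was lost where peaks under a fold enrichment of 5 were left out (0.998 kb, adjusted p = 0.0976).

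The genes nearest to Itga7 and Itgb1 over 12 values (3 measures in 4 libraries) were named by Euclidean distance. For Itga7 they were Ppp1r18 at 3.45 kb, Cd63 at 4.59 kb and Kank2 at 4.81 kb, of which Cd63 shares flank bases with Itga7. For Itgb1 they were Acoxl at 1.32 kb, Prmt7 at 1.72 kb and Anp32b at 1.77 kb. These distances describe likeness in coverage over libraries that differ in total covered length. The values were not scaled, and those of the flanks were the largest for Itga7. The ends of Ppp1r18 had 2.74 and 2.77 kb in ASC and 2.32 and 2.39 kb in FISC. Those of Itga7 had 4.0 and 4.0 kb in ASC and 1.59 and 1.75 kb in FISC.

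Itga5 (chr15:103344286-103366791) encodes alpha 5 of the fibronectin receptor. All 3 of its measures were called higher in ASC. The ends had 2.63 and 3.01 kb in ASC and 1.56 and 1.64 kb in FISC (difference 1.22 kb, SE 0.18, adjusted p = 0.0107), mainly from a start peak of 2.63 and 2.77 kb against 1.56 and 1.64 kb. The body had 2.41 and 3.12 kb against 1.27 and 1.13 kb (difference 1.56 kb, SE 0.33, adjusted p = 0.0253). Nearly all of it lay in 1 region, chr15:103357905-103360680, which was covered as 2 and 1 peaks in ASC and as 3 peaks in each FISC library. The body call was lost where peaks within 500 bases were joined (1.11 kb, adjusted p = 0.101). The flanks had 4.67 and 6.48 kb against 3.46 and 3.14 kb (difference 2.28 kb, SE 0.67, adjusted p = 0.0315).

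Around Itga5, 3 regions had peaks in both ASC libraries only, all upstream of its start: chr15:103369664-103371639 at 3.86 kb, chr15:103377653-103379168 at 11.6 kb and chr15:103393276-103393650 at 26.7 kb. The 2 regions with peaks in both FISC libraries only (chr15:103339920-103340305 and chr15:103333937-103334274) lay at Zfp385a on the other side. The end call was lost without ASC replicate 2 (1.03 kb, adjusted p = 0.0719). The flank call was lost without ASC replicate 2 (1.37 kb, adjusted p = 0.0845), without FISC replicate 1 (2.44 kb, adjusted p = 0.118) and without FISC replicate 2 (2.11 kb, adjusted p = 0.173), and the flank difference was -1.10 kb with the lists at equal covered length (adjusted p = 0.0522). The flank call was lost or turned in 10 of 17 alternatives in all.

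Itgav (chr2:83722303-83806917) encodes alpha v, which binds the RGD motif of vitronectin, fibronectin and latent TGF-beta. Its called differences lay in the body and the flanks. The ends had 0.77 and 0.83 kb in ASC and 0.57 and 0.38 kb in FISC (difference 0.33 kb, SE 0.11, adjusted p = 0.0822). The RefSeq start lies inside the gene span used here, and around that start ASC had 2.35 and 2.55 kb and FISC 1.67 and 1.53 kb (difference 0.85 kb, adjusted p = 0.0138). The body had 3.51 and 4.95 kb in ASC and 1.10 and 1.15 kb in FISC (difference 3.11 kb, SE 0.57, adjusted p = 0.0185).

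The flanks of Itgav had 5.68 and 6.10 kb in ASC and 0.74 and 0.33 kb in FISC (difference 5.35 kb, SE 0.37, adjusted p = 4.5e-04). All of the FISC coverage lay at the end of the neighbour Fam171b. Outside other genes the flank had 4.44 and 4.64 kb in ASC and 0 in both FISC libraries. Itgav had the most regions of any member with peaks in both ASC libraries only, 9 of the 28 found around all members. No share over the whole genome was counted beside this. The widest were chr2:83728477-83730061 and chr2:83744290-83745796 in the body and chr2:83699534-83700777 upstream, and 7 of the 9 lay in the flank upstream of the start. Their fold enrichments were 3.30 to 10.3, and with the lists at equal covered length the flank difference was 1.23 kb (adjusted p = 0.189) and the body difference 0.53 kb (adjusted p = 0.0585).

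Itgb5 (chr16:33829665-33949338) encodes beta 5, the partner of alpha v in a vitronectin receptor. Its start peak was 1.01 and 1.11 kb wide in ASC and 1.12 and 1.23 kb in FISC (difference -0.11 kb, SE 0.12, adjusted p = 0.493). The body had 3.19 and 3.90 kb against 2.57 and 3.61 kb, with overlapping groups (adjusted p = 0.506). The flanks had 2.73 and 3.29 kb in ASC and 1.20 and 1.03 kb in FISC (difference 1.90 kb, SE 0.29, adjusted p = 0.00305). Most of this lay in 1 distal region, chr16:33781251-33783161, 47.5 kb below the gene, with 1.53 and 1.86 kb under peaks in ASC and 0 in both FISC libraries. With flanks to 20 kb the difference was 0.20 kb (adjusted p = 0.374). The gene Muc13 lies between the distal region and Itgb5. The rest of the flank coverage lay at the neighbours Umps and Kalrn, with 1.20 and 1.44 kb in ASC and 1.20 and 1.03 kb in FISC. The region chr16:33889294-33890037 in the body had peaks in both ASC libraries only and chr16:33941626-33942149 in both FISC libraries only.

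Itgb6 (chr2:60598292-60722603) encodes beta 6, which pairs with alpha v and is known as an epithelial receptor chain that activates latent TGF-beta. Its ends had 3.51 and 3.14 kb in ASC and 0.75 and 0.29 kb in FISC (difference 2.80 kb, SE 0.22, adjusted p = 0.00319), which ranked 95 among the gains of 12924 genes. Its body had 34.1 and 37.2 kb in ASC and 6.80 and 7.26 kb in FISC (difference 28.6 kb, SE 2.62, adjusted p = 0.0052), which ranked 12 among 6528 genes. The rank is by kb and was not scaled to the length of the body, 120 kb. On average 29.6% of the body was covered in ASC and 5.85% in FISC. The flanks had 5.33 and 5.03 kb against 1.48 and 1.25 kb (difference 3.81 kb, SE 0.35, adjusted p = 6.4e-04). A flank region at the end of the neighbour Pla2r1 had 2.30 and 2.63 kb in ASC and 1.14 and 1.25 kb in FISC. Another reached to within 2 kb of Rbms1. Outside other genes and their ends, the flank had 2.03 and 1.36 kb in ASC and 0.15 and 0 kb in FISC (adjusted p = 0.0129). At the ends and in the body the differences of Itgb6 were the largest among the members.

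The peaks in Itgb6 and within 2 kb of it numbered 18 and 16 in ASC and 11 and 15 in FISC. The widest of them were 15.0 and 13.2 kb in ASC and 2.38 and 1.63 kb in FISC. The outer start, shown above, lay in a domain of 15.1 kb (chr2:60708528-60723653). ASC replicate 1 had 1 peak and ASC replicate 2 had 2 peaks over 15.0 kb of this domain, while FISC replicates 1 and 2 had 7 and 8 peaks over 3.82 and 3.32 kb. Another domain of 11.8 kb further inside (chr2:60692273-60704095) had 10.5 and 11.8 kb under peaks in ASC, as 4 peaks and 1 peak, and 2.60 and 3.25 kb in FISC, as 2 and 4 peaks. The inner start had no peak in any library. Regions with peaks in both ASC libraries only lay at chr2:60631644-60634197 and chr2:60639226-60640998 in the body and at chr2:60583819-60584780, 14.0 kb below the gene. The end call was lost when any 1 library was left out, with differences from 2.57 to 3.03 kb and adjusted p-values from 0.0623 to 0.0937, while the flank call held in each such fit.

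**Figure D3:**
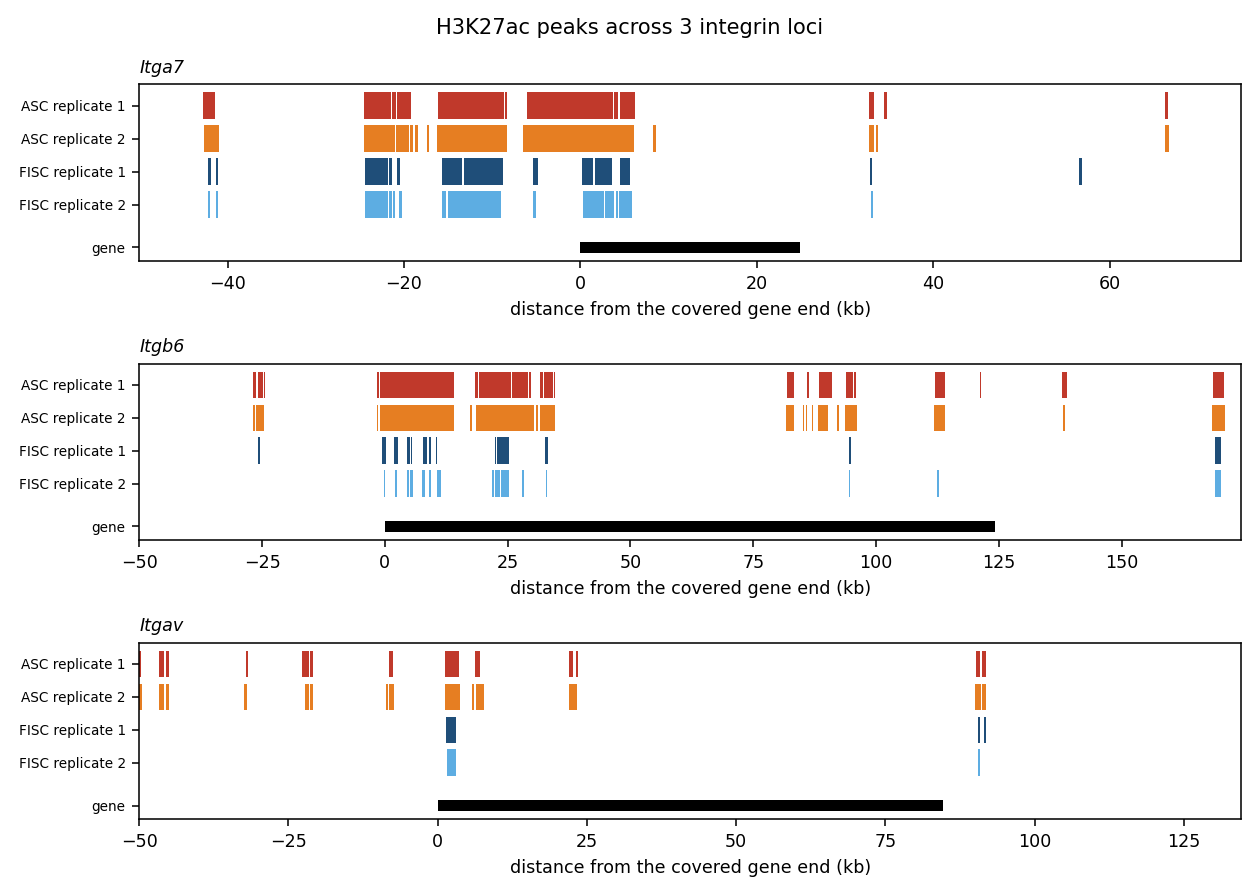
Peaks along the loci of Itga7, Itgb6 and Itgav in the 4 libraries, by distance in kb from the covered end of the gene, negative outside it, with the gene span as a black bar. In the Itgb6 domains of 15.1 and 11.8 kb the ASC peaks cover 15.0 and 15.0 kb and 10.5 and 11.8 kb and the FISC peaks 3.82 and 3.32 kb and 2.60 and 3.25 kb, and outside the covered end of Itgav all peaks drawn are from ASC.

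Itga4 and Itga9 encode the related chains alpha 4 and alpha 9, which bind VCAM-1 and other matrix and cell-surface ligands and are best known from leukocytes and, for alpha 9, from muscle and epithelia. Itga4 (chr2:79255426-79333114) had no base under a peak in any library within the gene, at its ends or up to 50 kb away. Itga9 (chr9:118606709-118901003) had none at its ends and few and small peaks in its 290 kb body, 0.77 and 0.43 kb in ASC and 0.46 and 0.43 kb in FISC (adjusted p = 0.454). Without ASC replicate 2 the body difference of Itga9 was 0.317 kb (adjusted p = 0.0387). The body region chr9:118750521-118750810 had peaks in both ASC libraries only. No peak lay on the 250 bases before the annotated start of Itga9, which lies inside the gene span used here.

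The flanks of Itga9 had 1.72 and 2.28 kb in ASC and 4.26 and 5.81 kb in FISC, a difference of -3.03 kb (SE 0.59, adjusted p = 0.00743). All of this coverage lay in or at the neighbour Ctdspl, a phosphatase gene, so that outside other genes the flank of Itga9 was at 0 in every library. The region chr9:118949564-118950240 had peaks in both FISC libraries only. The call was lost without ASC replicate 1 (-2.75 kb, adjusted p = 0.146) and without ASC replicate 2 (-3.31 kb, adjusted p = 0.131), and where peaks under a fold enrichment of 5 were left out (-0.69 kb, adjusted p = 0.149).

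Over all members the peaks merged into 124 regions. Of these 30 had a peak in all 4 libraries, 28 in both ASC libraries only, 7 in both FISC libraries only and 59 in other combinations. The same split was not counted over the whole genome. The ASC lists covered 49.2 and 57.7 Mb and the FISC lists 34.4 and 33.7 Mb, so the split is not read as particular to the members. At the ends of each of 8 members 1 region had a peak in all 4 libraries. The regions found in both libraries of 1 condition only lay in bodies and flanks, except for a region of 0.46 kb outside the outer end of Itgb6 with peaks in both ASC libraries.

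The larger covered length of ASC was set against the members in 2 ways. In the first, the weaker peaks of the longer lists were left out until these covered 33.7 Mb, the length of the FISC replicate 2 list. The FISC replicate 2 list thus lost nothing, and FISC replicate 1 went from 34.4 to 33.7 Mb. The ASC lists went from 49.2 and 57.7 Mb to 33.7 Mb each, so weaker peaks were left out almost only in ASC. At the ends Itga7, Itgb6, Itga5 and Itga6 were then called higher and none lower (15.8% and 13.1% of genes). In the bodies Itgb6 and Itga5 were called higher and none lower (19.6% and 31.6%), and in the flanks Itga7, Itgb6 and Itgb5 higher and Itga3 and Itga9 lower (18.4% and 21.1%). The flank of Itga3 was left with 0.74 and 0 kb in ASC, while its FISC values, 3.86 and 3.93 kb, stayed as covered. In the other, each value was divided by the total covered length of its library. At the ends Itga7 and Itgb6 were then called higher and Itgb5 lower (9.19% and 36.6% of genes). In the bodies Itgb1, Itgb6, Itga5 and Itgav were called higher and none lower (36.0% and 20.5%), and in the flanks Itga7, Itgb1, Itgb6, Itgav and Itgb5 higher and Itga6 and Itga9 lower (24.5% and 31.1%). The median over all genes tested at the ends was 0.30 kb as covered, 0.19 kb at equal length and -0.34 kb after division. Itgb6 was called higher in all 3 measures on all 3 scales. At equal covered length its ASC flank values, 2.30 and 2.63 kb, equalled those of the region at Pla2r1. On all 3 scales Itga7 was called higher at the ends and in the flanks, Itga5 in the bodies and Itgb5 in the flanks, and Itga9 was called lower in the flanks. In ASC the end peaks of Itga7 ran on into its flank and those of Itgb6 into its body, so these measures share peaks.

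**Figure D4:**
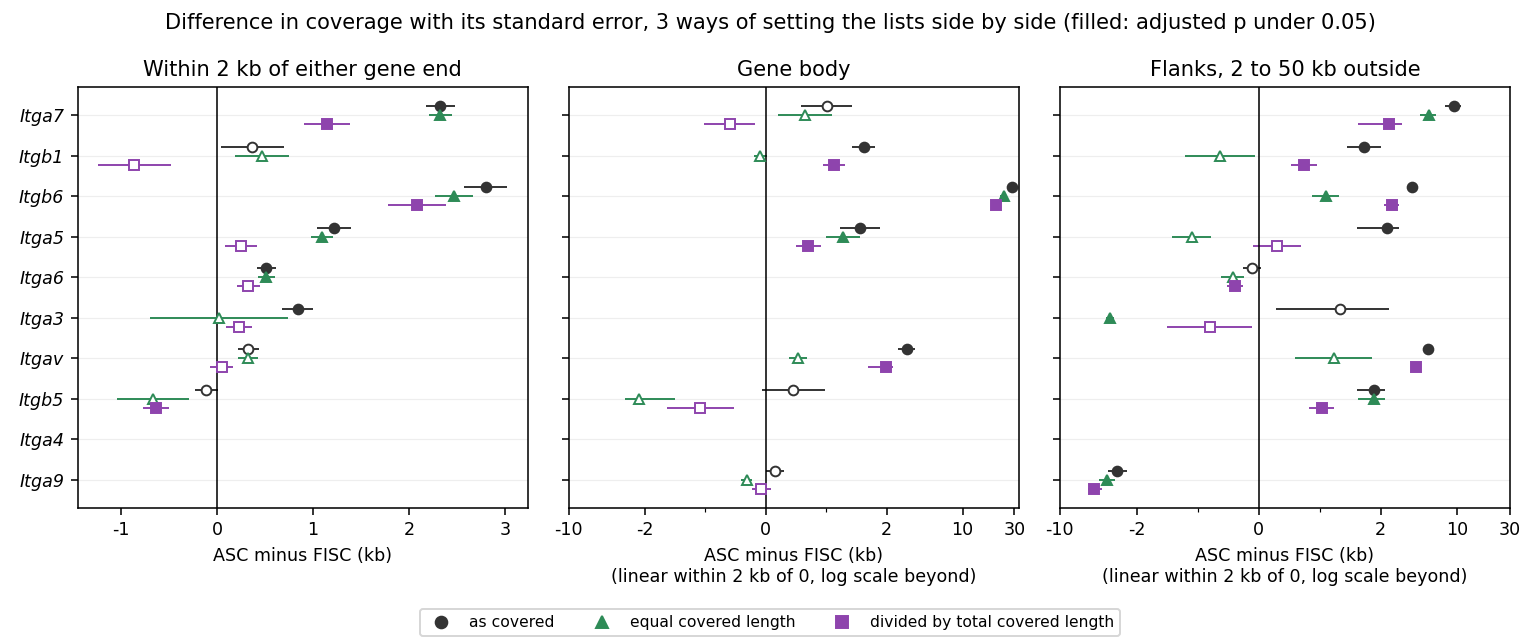
Difference in coverage, ASC minus FISC in kb with its standard error, for each member and measure on 3 scales; filled symbols have an adjusted p under 0.05, and the axes of the body and flank panels are linear within 2 kb of 0 and logarithmic beyond. Itgb6 lies to the right of 0 with filled symbols in every panel, while Itgb1 at its ends and Itgb5 in its body change sides with the scale.

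Genes that work with integrins were taken from 4 lists, whose counts stand beside those of all genes. As covered, 26.5% of all genes were called higher and 3.61% lower at the ends, 42.8% and 9.73% in the bodies, and 46.0% and 5.71% in the flanks. After division by the covered length these shares were 9.19% and 36.6%, 36.0% and 20.5%, and 24.5% and 31.1%, and at equal covered length 15.8% and 13.1%, 19.6% and 31.6%, and 18.4% and 21.1%. Of 44 adaptors and activators, which link the beta tails to actin and to kinases, 14 of 37 tested rose at the ends and 0 fell, 20 of 34 rose and 2 fell in the bodies, and 30 of 42 rose and 2 fell in the flanks. The medians were 0.52, 2.53 and 2.00 kb, against 0.30, 0.53 and 0.96 kb over all genes. Of the 44, 9, 14 and 8 were uncovered in both FISC libraries at the ends, in the bodies and in the flanks. In both ASC libraries 6, 8 and 1 were uncovered. Here and in the other lists, genes that passed the filter only through ASC could not have been called lower, nor those only through FISC higher. Among the largest differences at the ends were those of Bcar1 (p130Cas, 4.68 and 6.34 kb in ASC against 1.74 and 1.63 kb in FISC), Pxn (paxillin, 3.74 and 3.47 kb against 1.71 and 1.65 kb) and Parvb (a parvin, 1.87 and 1.79 kb against 0.35 and 0 kb). In the bodies the 4 largest were Tns3, a tensin gene (37.7 and 45.1 kb against 3.88 and 4.45 kb), the docking protein gene Nedd9 (16.3 and 17.1 kb against 1.85 and 1.37 kb), the actinin gene Actn1 (15.4 and 18.1 kb against 2.82 and 2.69 kb) and Bcar1. In the flanks they were Ptk2, which encodes focal adhesion kinase (12.5 and 14.9 kb against 3.89 and 3.93 kb), Kank2, Tns3 and Cav1. Lims2 and Tns2 fell in the bodies and Fermt1 and Rap1a in the flanks, named here after their values were seen. After division by the covered length 6 rose and 17 fell at the ends, 15 rose and 6 fell in the bodies, and 15 rose and 9 fell in the flanks. At equal covered length the counts were 11 and 4 of 35 tested, 12 and 9 of 30, and 10 and 6 of 38.

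Of 24 ligands, 10 of 24 rose and 1 fell at the ends, 8 of 16 rose and 1 fell in the bodies, and 14 of 23 rose and 1 fell in the flanks. Of all genes, 26.5%, 42.8% and 46.0% were called higher in these places. At the ends the largest were Thbs1 (a thrombospondin, 3.76 and 4.0 kb in ASC against 1.62 and 1.83 kb in FISC), Spp1 (osteopontin, 1.77 and 1.67 kb against 0 in both), the laminin gene Lama5 (3.33 and 3.48 kb against 1.90 and 2.00 kb) and Tnc (tenascin-C, 2.30 and 2.58 kb against 1.32 and 0.99 kb). In the bodies they were Adam12, Lama5 and Vcam1, which were higher, and the collagen gene Col4a1, which was lower (8.22 and 10.2 kb against 13.9 and 16.3 kb). In the flanks they were Emilin1, Ccn1, Col4a1 and Tnc, all higher. At the ends Spp1 passed the filter only through ASC, so it could not have been called lower. After division 4 rose and 10 fell at the ends, 8 rose and 4 fell in the bodies, and 11 rose and 6 fell in the flanks. At equal covered length the counts were 5 and 4 of 22 tested, 4 and 4 of 13, and 6 and 5 of 21.

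Among 16 other integrin subunits 3 of 10 tested rose at the ends and 0 fell, and 6 were uncovered in all libraries, a share called higher near the 26.5% of all genes. The 3 were the leukocyte integrin genes Itgb2 (1.17 and 1.21 kb in ASC against 0 in both FISC libraries) and Itgb7 (0.59 and 0.62 kb against 0 in both) and the epithelial laminin receptor gene Itgb4 (1.42 and 1.10 kb against 0.21 and 0 kb). Itgb2 and Itgb7 passed the filter of at least 2 libraries only through ASC, so they could not have been called lower. The myeloid genes Itgam and Itgax were at 0 at their ends in every library, and the summed level of the 10 myeloid markers was higher in ASC, as given above. In the bodies Itgb7 and Itgae rose, 2 of 9, and 0 fell, a smaller share than the 42.8% of all genes. In the flanks 5 of 13 rose, against 46.0% of all genes, among them Itgb4 (13.1 and 13.9 kb against 5.92 and 5.02 kb), Itga10 and Itga2, while Itga8 fell (0.76 and 1.68 kb against 5.42 and 5.19 kb). After division 3 rose and 3 fell at the ends, 1 rose and 0 fell in the bodies, and 3 rose and 5 fell in the flanks. At equal covered length the counts were 1 and 2 of 7 tested, 1 and 0 of 7, and 0 and 2 of 12.

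Of 14 tetraspanin and membrane partner genes, 4 of 12 rose at the ends and 0 fell, 4 of 14 rose and 1 fell in the bodies, and 8 of 14 rose and 0 fell in the flanks. The shares called higher were near the 26.5% of all genes at the ends and under the 42.8% in the bodies, with 46.0% of all genes called in the flanks. The 4 at the ends were Cd63, the amino acid transporter chain gene Slc3a2 (3.01 and 3.69 kb in ASC against 1.59 and 1.70 kb in FISC), the urokinase receptor gene Plaur (3.85 and 4.0 kb against 2.75 and 2.31 kb) and Cd151, a partner of laminin-binding integrins (4.97 and 4.74 kb against 3.93 and 3.86 kb). In the bodies Sdc1, Cd47 and Plaur were higher, and the dystroglycan gene Dag1, another laminin receptor of muscle, was lower (4.39 and 8.20 kb against 13.6 and 12.3 kb). In the flanks the largest were Cd47 (14.2 and 17.0 kb against 1.95 and 2.18 kb), Cd63, Cd9 and Plaur. After division 2 rose and 4 fell at the ends, 2 rose and 3 fell in the bodies, and 5 rose and 4 fell in the flanks. At equal covered length the counts were 2 and 0, 1 and 5, and 4 and 4.

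**Figure D5:**
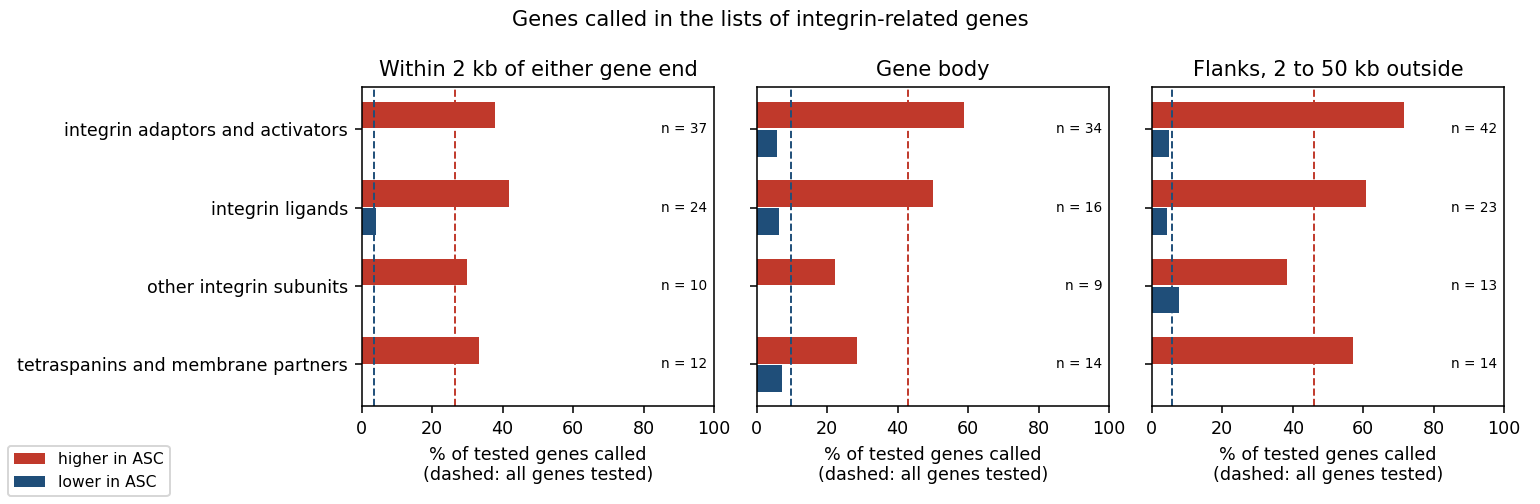
Percent of tested genes called higher (red) or lower (blue) in ASC in the 4 lists of integrin-related genes, with the number tested at the right of each bar pair and dashed lines at the percent over all genes tested, for values as covered. In the flanks 30 of 42 adaptors are called higher, against 46.0% of all genes. Genes that passed the filter only through ASC could not be called lower.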

How the data were processed

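Peak lists of 4 H3K27ac libraries (2 ASC, 2 FISC) were analysed. Per the submitters' processing notes, bcl2fastq 2.19, BWA, Picard and MACS2 were used with build mm10, on reads of 75 bases per the labels. The deposited columns hold, per peak, a score, the signal value as fold enrichment and −log10 p and q values, called per library by the authors. From the peak bounds, kb under peaks per gene were computed with Python 3.11.15 and RefSeq gene spans (GRCm38.p6). These were tested across all protein-coding genes covered in at least 2 libraries with limma 3.58.1 (R 4.3.3, eBayes with trend, no block) and Benjamini-Hochberg adjustment. The code was tested on simulated data. Members, lists and tests were chosen with earlier results of these data known. From each list, up to 4 called genes with the largest difference were named, and up to 3 of the widest regions per member and direction. Of the genes that meet this rule, 1 was left out and is not reported here. Alternatives covered the windows, the filters, the scaling of the lists, the replicate block and each library left out. Peak number and width also depend on read depth, which was unknown.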

Additional observations from a re-analysis of the deposited data

How the results depend on the processing

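Of 378 single-gene alternatives for the members, 294 kept direction and side of the threshold, 56 lost the call, 10 gained one and 18 changed sign, and no gain called in the data as covered became a called loss. The causes were not tested. Read depth was unknown, and 2 libraries per group limit the precision. Deviations of same-numbered libraries correlated at -0.0231 (ends), 0.0587 (bodies) and -0.124 (flanks), which does not show that the numbers pair them. No call of a member changed with the replicate block: members called stayed at 5 and 0 at the ends, 4 and 0 in the bodies and 6 and 1 in the flanks (higher and lower), with 3001 and 432, 2746 and 593, and 7412 and 983 genes in all. Crossed replicate numbers in the flanks, added after seeing the data, gave 7969 genes higher and 1061 lower.

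At the ends, 3419 genes were called higher and 467 lower. The counts were 1912 and 226 with ends of 1 kb, 1908 and 1580 at equal covered length, 1245 and 167 with no coverage filter and 1188 and 4735 after division by covered length, and 282 were lower with fold enrichment of at least 5. Members called higher fell to 2 with no coverage filter and 2 after division, which also put 1 lower. Leaving out 1 library each gave 0 to 1220 higher and 0 to 78 lower, with 0 to 3 members higher. Lower genes at an unadjusted p under 0.05 numbered 595 and 638 without FISC replicates 1 and 2.

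In the bodies, 2794 were called higher and 635 lower. The counts were 992 and 1598 at equal covered length, with 2 members higher. Lower calls were 401 without trend, 261 with fold of at least 5, 423 with −log10 q of at least 5 and 1335 after division. Leaving out 1 library each gave 0 to 2807 higher and 0 to 331 lower, with 0 to 4 members higher, and 630 and 669 genes were lower at an unadjusted p under 0.05 without FISC replicates 1 and 2.

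In the flanks, 7351 were called higher and 913 lower. Higher calls were 2698 at equal covered length, 4381 with flanks to 20 kb, 4443 with no coverage filter, 3912 after division and 4180 without other genes. Lower calls were 516 without trend, 3096 at equal covered length, 519 with fold of at least 5, 484 with no coverage filter and 4965 after division. Leaving out 1 library each gave 3925 to 7501 higher and 421 to 716 lower, with 4 to 7 members higher and 0 to 1 lower. Members higher fell to 3 at equal covered length. Members lower were 2 at equal covered length and after division, and 0 with flanks to 20 kb, fold of at least 5, no coverage filter, without other genes, and without either ASC replicate.

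The sign changes at the ends were those of Itgb1 with ends of 1 kb (-0.0615 kb), after division (-0.86 kb) and without FISC replicate 2 (range over libraries left out -0.0905 to 0.8295 kb). In the bodies they were Itga7 after division (-0.60 kb), Itgb1 at equal covered length (-0.0935 kb), Itgb5 at equal covered length (-2.27 kb), after division (-1.08 kb) and without FISC replicate 1 (range -0.069 to 0.976 kb), and Itga9 at equal covered length (-0.32 kb), at equal peak number (-0.088 kb), after division (-0.0739 kb) and without ASC replicate 1 (range -0.023 to 0.317 kb). In the flanks they were Itgb1 (-0.63 kb), Itga5 (-1.10 kb) and Itga3 (-3.53 kb, adjusted p = 0.00357) at equal covered length, Itga3 after division (-0.81 kb) and without ASC replicate 2 (range -0.355 to 3.029 kb), and Itga6 with flanks to 100 kb (0.53 kb).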
